A study of Mus musculus with 4 samples.

Results

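Ribosomal protein genes were followed in ATAC-seq data from mouse DN3 thymocytes, the CD4/CD8 double-negative precursors that rearrange the T cell receptor beta locus. ATAC-seq uses a transposase to tag open DNA, so a peak marks an accessible site. The genes were chosen by symbol alone: RefSeq protein-coding genes named Rpl or Rps and a digit, with Rplp0, Rplp1, Rplp2 and Rpsa, and without S6 kinases, pseudogenes and paralogs whose symbol ends in l or l1. This gave 81 of 21887 protein-coding genes on chromosomes 1 to 19, X and Y. Of the 81, 46 encode proteins of the large subunit and 31 proteins of the small subunit. The other 4 are Rps19bp1, whose product binds RPS19, and the retrogenes Rpl37rt, Rps23rg1 and Rps27rt, which are copies of a ribosomal protein mRNA. Any peak that overlapped the gene or the 1 kb on either side by at least 1 bp was counted.

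All 4 libraries came from wild-type mouse thymus, from DN3 cells obtained by flow sorting and then passed over magnetic beads with an antibody to EpCAM, a surface adhesion molecule. The EpCAM-positive fraction is what the magnet retained and the EpCAM-negative fraction is what it did not, with 2 libraries each and no further treatment named. No source used here gives the age or number of animals, or says that the 2 libraries of a fraction came from different mice, so p-values measure only the spread between these libraries, which may be technical. The comparison asks whether the promoters of the translation machinery differ in accessibility between DN3 cells with and without EpCAM. In sorted bulk cells, fewer cells with an open site and less opening per cell cannot be told apart.

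The ribosome is built from ribosomal RNA and about equal amounts of each ribosomal protein, and the genes for these proteins lie scattered over the chromosomes and are transcribed in nearly every cell. Their promoters typically lack a TATA box and start transcription at a C inside a run of pyrimidines, which becomes the 5' terminal oligopyrimidine (TOP) tract through which mTOR signalling controls translation of the mRNA. DN3 thymocytes that pass beta selection grow and divide rapidly, and loss of the ribosomal protein RPL22 is known to block alpha-beta T cell development at that step.

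Promoter sequences are shown for the genes on which the values below turn, from 150 bases before to 20 bases after the listed transcription start nearest to the peak summit, 5′ to 3′ on the strand of the gene. They are from RefSeq, build GRCm38.p6, and 61 of the 81 genes had an entry in the promoter table. Capitals mark matches on either strand to 8 strings. CCGGAAG is bound by ETS-family proteins such as GABP. GGGCGG is bound by proteins of the SP and KLF families. The third, AAGATGGC, is bound by YY1. GCATGCGC is bound by NRF1 and TGACGTCA by CREB. The E-box recognised by MYC and USF proteins was searched as CACGTG. The core promoter box known from other genes was searched as TATAAA. TCTCGCGA is part of the box read by ZBTB33 and BANP. A TOP tract was marked on the sense strand only. A TOP tract was taken as a C within 10 bases of the listed start followed by at least 4 bases that are all C or T. None of these strings contains another.

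The most accessible promoters of the family with an entry were those of Rps19 (chr7:24884442-24884611, plus strand), Rps23 (chr13:90922972-90923141, plus strand) and Rpl10 (chrX:74270666-74270835, plus strand). Their summits lay 343, 128 and 286 bp before the start.
Rps19: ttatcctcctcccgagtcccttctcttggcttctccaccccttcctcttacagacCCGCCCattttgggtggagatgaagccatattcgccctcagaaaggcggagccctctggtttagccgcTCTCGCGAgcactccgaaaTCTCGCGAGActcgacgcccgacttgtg
Rps23: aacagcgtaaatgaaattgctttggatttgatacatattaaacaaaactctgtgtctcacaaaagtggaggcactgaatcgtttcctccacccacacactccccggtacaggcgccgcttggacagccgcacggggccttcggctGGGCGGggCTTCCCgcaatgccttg
Rpl10: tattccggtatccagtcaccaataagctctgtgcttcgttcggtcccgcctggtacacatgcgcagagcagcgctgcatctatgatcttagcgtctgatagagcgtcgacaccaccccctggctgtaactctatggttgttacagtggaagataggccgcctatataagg
In Rps19 the capitals are a GGGCGG match on the minus strand and 2 stretches of the ZBTB33/BANP box, and in Rps23 a GGGCGG match and a pyrimidine tract.

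Among the weakest promoters, Rpl23a is named only, and Rps24 (chr14:24490603-24490772, plus strand) is shown.
Rps24: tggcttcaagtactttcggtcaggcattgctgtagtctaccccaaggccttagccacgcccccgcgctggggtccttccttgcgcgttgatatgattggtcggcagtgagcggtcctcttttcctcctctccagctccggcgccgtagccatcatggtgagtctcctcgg
The summit at Rps24 lay 54 bp after the start.

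Rpl9 (chr5:65391412-65391581, minus strand) and Rpl7a (chr2:26910657-26910826, plus strand) had the largest positive differences between the fractions, and Rps6 (chr4:86857348-86857517, minus strand), chosen after its values were seen, had the lowest p-value.
Rpl9: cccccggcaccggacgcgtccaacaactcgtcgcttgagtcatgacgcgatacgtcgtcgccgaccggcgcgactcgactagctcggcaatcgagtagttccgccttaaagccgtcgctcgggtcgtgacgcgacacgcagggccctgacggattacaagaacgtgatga
Rpl7a: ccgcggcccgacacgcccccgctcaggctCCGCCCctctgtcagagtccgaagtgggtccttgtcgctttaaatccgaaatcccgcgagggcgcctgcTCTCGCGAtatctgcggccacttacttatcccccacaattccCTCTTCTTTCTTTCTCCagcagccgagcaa
Rps6: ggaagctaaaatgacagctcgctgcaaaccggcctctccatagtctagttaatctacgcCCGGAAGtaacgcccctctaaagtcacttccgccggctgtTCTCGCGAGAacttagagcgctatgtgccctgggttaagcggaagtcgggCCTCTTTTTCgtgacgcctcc
Capitals in Rpl9 are absent, in Rpl7a they mark a GGGCGG match on the minus strand, the ZBTB33/BANP box and a TOP tract, and in Rps6 an ETS site, the ZBTB33/BANP box and a TOP tract.

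Rpl13 (chr8:123102200-123102369, plus strand) and Rplp2 (chr7:141447501-141447670, plus strand) had the largest negative differences.
Rpl13: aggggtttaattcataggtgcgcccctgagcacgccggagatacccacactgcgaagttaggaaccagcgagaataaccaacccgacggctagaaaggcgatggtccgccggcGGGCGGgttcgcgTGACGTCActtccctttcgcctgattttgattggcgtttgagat
Rplp2: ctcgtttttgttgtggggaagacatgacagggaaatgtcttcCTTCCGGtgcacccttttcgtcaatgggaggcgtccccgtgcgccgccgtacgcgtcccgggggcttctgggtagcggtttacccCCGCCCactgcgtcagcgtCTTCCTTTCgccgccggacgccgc
Capitals mark a GGGCGG match and a CREB site in Rpl13, and an ETS site, a GGGCGG match on the minus strand and a TOP tract in Rplp2.

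Rpl22 (chr4:152325576-152325745, plus strand) is shown for its part in beta selection. Rps27 (chr3:90213629-90213798, minus strand) and its retrogene Rps27rt (chr9:114982720-114982889, minus strand) are shown, by a choice made after their values were seen, because the parent had a peak in every library and the copy in none.
Rpl22: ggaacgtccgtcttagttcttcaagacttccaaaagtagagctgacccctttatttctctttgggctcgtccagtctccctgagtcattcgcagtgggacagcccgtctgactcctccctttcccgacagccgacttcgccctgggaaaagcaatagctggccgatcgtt
Rps27: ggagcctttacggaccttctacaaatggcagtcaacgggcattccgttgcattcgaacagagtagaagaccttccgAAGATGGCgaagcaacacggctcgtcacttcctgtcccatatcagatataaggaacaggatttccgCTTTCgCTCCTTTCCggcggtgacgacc
Rps27rt: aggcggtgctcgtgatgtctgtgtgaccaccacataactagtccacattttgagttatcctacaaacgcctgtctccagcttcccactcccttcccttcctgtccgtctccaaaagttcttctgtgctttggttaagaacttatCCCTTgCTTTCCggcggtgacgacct
Capitals mark a YY1 site in Rps27 and pyrimidine tracts in Rps27 and Rps27rt. The longest run of bases common to the listed windows of Rps27 and Rps27rt is 38 bases, and it begins at the listed start of the copy, so that the promoter of the parent before its start is not part of it. For Rps23rg1 with Rps23 and for Rpl37rt with Rpl37 the longest common run is 8 bases.

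Nearly the whole family was open in both fractions. A peak was found in all 4 libraries at 78 of the 81 genes, beside 51.7% of all protein-coding genes, and these 78 include every large-subunit and every small-subunit gene. By library, 78 genes had a peak in EpCAM-positive replicate 1, 79 in EpCAM-positive replicate 2, and 78 in each EpCAM-negative library, which is 96.3% to 97.5% of the family against 56.1% to 59.5% of all genes. The exact Clopper-Pearson 95% interval for 78 of 81 runs from 89.6% to 99.2% and covers counting error only. The share was 96.9% ± 0.849 (SD, n = 2) in EpCAM-positive and 96.3% ± 0 (SD, n = 2) in EpCAM-negative cells. An exact permutation test (two-sided) of 2 libraries against 2 cannot go below p = 0.333, so it could not have shown a difference in this share.

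No gene of the family had a peak in the EpCAM-positive pair only, against 1.35% of all protein-coding genes, and none in the EpCAM-negative pair only, against 0.26%. The deposited EpCAM-negative lists reach down to a −log10 q of 1.32 and 1.34 and the EpCAM-positive lists to 2.07 and 2.02, so the lists do not share a threshold. With only peaks at a −log10 q of at least 5 kept in all lists, 78 genes again had a peak in all 4 libraries and none in 1 pair only.

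The 3 exceptions were the retrogenes. Rps23rg1 and Rps27rt had no peak in any library. Rpl37rt had a single peak, in EpCAM-positive replicate 2, with 10 fragments at its summit, which lay 2550 bp from the nearer end of the gene. Without EpCAM-positive replicate 1, Rpl37rt counts as open in the EpCAM-positive fraction only, which rests on that 1 peak. Pseudogenes named for a ribosomal protein, which the rule leaves out, rarely had a peak. Of 324, 6 had a peak in any library and 0 in all 4, while 1.95% of the 10105 other pseudogenes had a peak in all 4. Reads from near-identical copies cannot be placed uniquely, how such reads were handled is not stated in any source used here, and its part in these low counts was not tested.

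Peaks at ribosomal protein genes stood above the middle of those at other genes. Ranked by −log10 q within its own list, the strongest peak of a family member had a median percentile of 86.8 in EpCAM-positive replicate 1, 85.9 in EpCAM-positive replicate 2, 81 in EpCAM-negative replicate 1 and 83.8 in EpCAM-negative replicate 2. The same median over all genes with a peak was 74.8, 76.3, 73.9 and 74.4. Since the lists differ in length and in their lowest −log10 q, percentiles were compared within a list only. No member fell under the 25th percentile of its list in any library, and 32.1%, 31.6%, 26.9% and 25.6% of members with a peak were in the top 10% of the 4 lists, in the same order, against 22.1%, 23.7%, 21.7% and 22.2% of all genes with a peak. Member peaks had median widths of 620.5 to 730 bp against 517 to 639 bp for all genes with a peak.

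For each region called in all 4 libraries, the number of fragments at the summit was solved from the fold and p-value that the authors' peak caller deposited, and then divided by a library factor (1.093 and 1.127 for the EpCAM-positive, 0.909 and 0.892 for the EpCAM-negative libraries). These scaled summit fragments are the level used below. Over the 78 member regions the median of the mean level was 48.8 fragments, against 36.3 over 9409 regions of protein-coding genes. Sets of genes with related work, described below, had medians from 41.4 to 51.2, so this level is not particular to the family. No 2 members shared a region, but the region of 12 members also holds the listed start of another gene. Among them are Rpl9 with Lias, Rpl7a with Med22, Rpl22 with 9430083M05Rik, Rpl35a with Iqcg, Rps27 with Rab13 and Rps18 with Vps52. The signal there cannot be given to 1 gene.

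**Figure D1:**
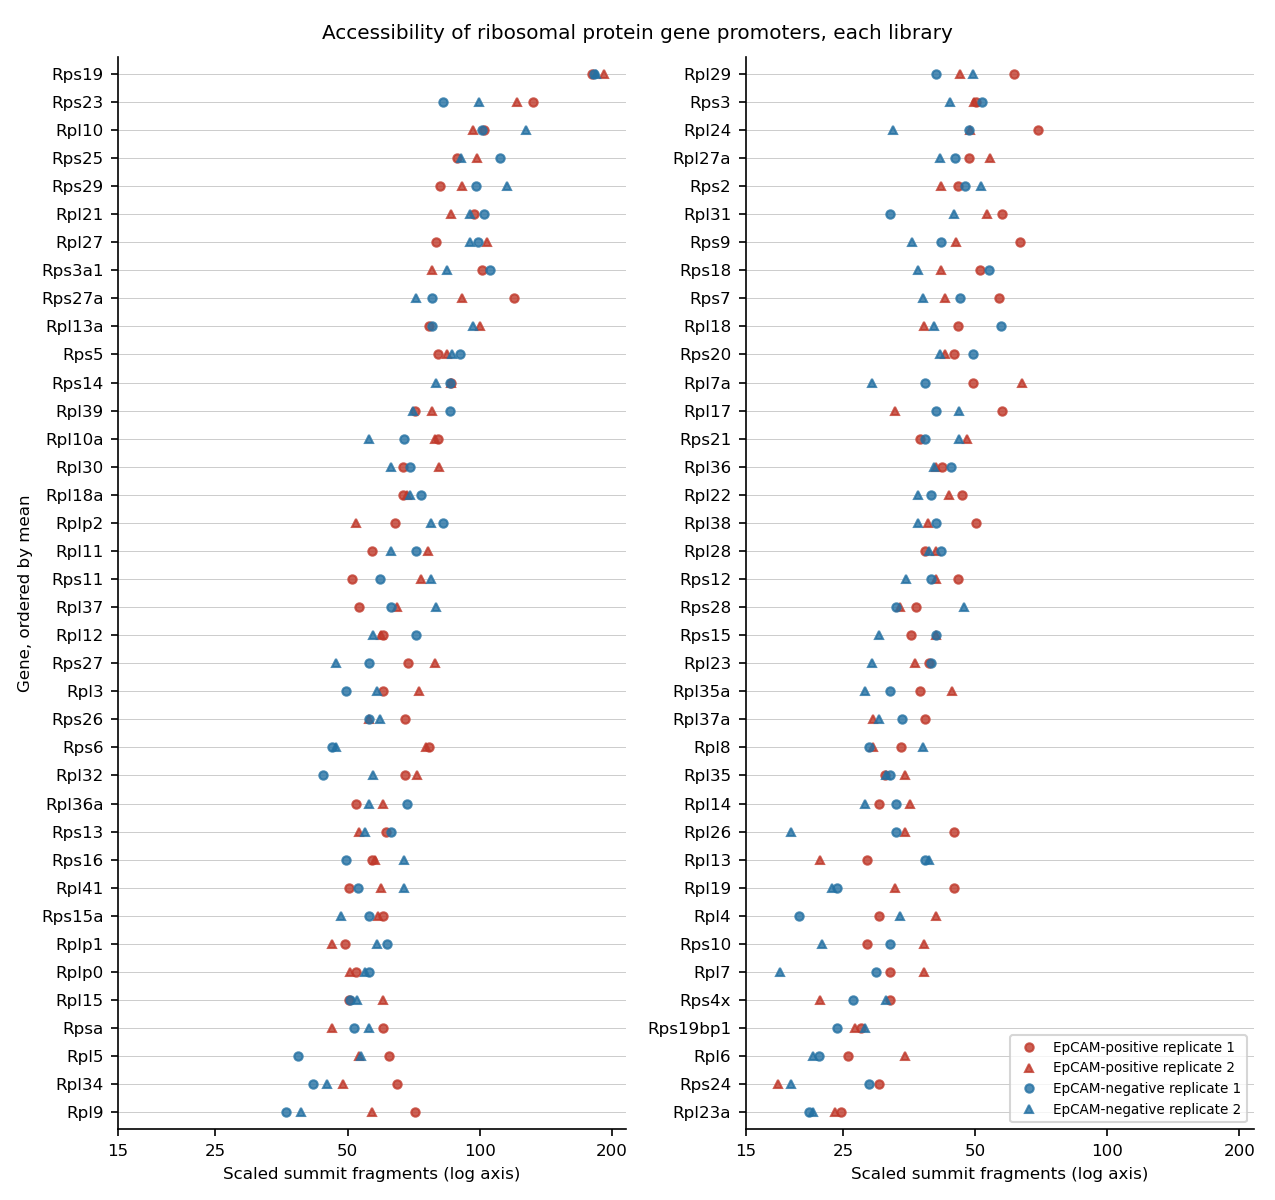
Scaled summit fragments (log axis) at 76 of the 78 ribosomal protein gene regions called in all 4 libraries, ordered by mean; each point is 1 library, red EpCAM-positive and blue EpCAM-negative, circles replicate 1 and triangles replicate 2. Rps19 lies above all others, levels at the weakest genes are near 23 fragments, and at most genes the red and blue points overlap.

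Rps19, whose human counterpart is the gene most often mutated in Diamond-Blackfan anaemia, had the highest level of the family. Its summit held 180.2 and 191.6 scaled fragments in the 2 EpCAM-positive libraries, against 182.6 and 183.8 in the 2 EpCAM-negative ones. The fractions overlapped, with a log2 difference of 0.02 (SE 0.14). Rps23, a protein of the decoding centre, came next with 132.6 and 121.5 against 82.49 and 99.74 scaled fragments. Both EpCAM-positive libraries were above both EpCAM-negative libraries there.

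X-linked Rpl10, needed late in large-subunit maturation, had 102.4 and 96.7 scaled fragments in the 2 EpCAM-positive libraries, against 101.2 and 127.8 in the 2 EpCAM-negative ones, which overlap. The other genes among the 10 highest were Rps25, Rps29, Rpl21, Rpl27, Rps3a1, Rps27a (which encodes ubiquitin fused to the ribosomal protein) and Rpl13a, with mean levels from 87.25 to 96.88. Of the 10, 6 encode small-subunit and 4 large-subunit proteins.

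At the other end, Rpl23a had 24.69 and 23.95 scaled fragments in the 2 EpCAM-positive libraries, against 20.9 and 21.29 in the 2 EpCAM-negative ones, with no overlap and a mean of 22.65. Rps24, another Diamond-Blackfan anaemia gene, had 30.18 and 17.74 against 28.6 and 19.05. In both fractions of Rps24 replicate 1 was the higher library. Other low genes were Rpl6, Rps19bp1, X-linked Rps4x and Rpl7, with means of 25.38 to 28.4. From Rpl23a to Rps19 the levels span 22.65 to 184.5 fragments.

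No member passed the test of the fractions across all regions. In limma, fitted to the log2 scaled fragments of all 16761 regions called in all 4 libraries with Benjamini-Hochberg adjustment, 0 of 78 member regions reached an adjusted p under 0.05 in either direction, while 0.209% of all regions were called higher and 0.322% lower in the EpCAM-positive fraction. At an unadjusted p under 0.05 limma gave 14 of 78 members higher and 2 lower. The same counts were 623 higher and 383 lower of the 9409 regions of protein-coding genes. Over all regions, distal ones included, the shares were 6.2% higher and 7.09% lower. The smallest adjusted p of a member was 0.0809, at Rps6.

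By plain order of the libraries, both EpCAM-positive values lay above both EpCAM-negative values at 25 of 78 member regions (32.1%), beside 23.8% of the regions of protein-coding genes. Both lay below at 8 member regions (10.3%), beside 16.5%, and the fractions overlapped at the other 45. The log2 difference was above 0 at 46 members and below 0 at 32, beside 5235 and 4174 of the 9409 regions of protein-coding genes. The median over members was 0.0558, with quartiles of −0.0913 and 0.33, and the median over all regions of protein-coding genes was 0.0442. With libraries scaled by their background instead of by shared regions, the median of all regions moves to −0.114 and that of the members to −0.063, so the sign of the family's median depends on the scaling. This scaling shifts every region alike, and the median over regions of protein-coding genes moves to −0.0746. Under it the log2 difference was above 0 at 33 of 78 members. Both EpCAM-positive values then lay above at 17 members (21.8%), beside 14.1% of the regions of protein-coding genes, and below at 18 (23.1%), beside 27.7%. The median member differed by 0.229 between the EpCAM-positive replicates, by 0.236 between the EpCAM-negative replicates and by 0.172 between the fraction means, all as absolute log2 values. The last is a difference between means of 2 libraries and the others are between single libraries, so they cannot be set against each other directly.

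**Figure D2:**
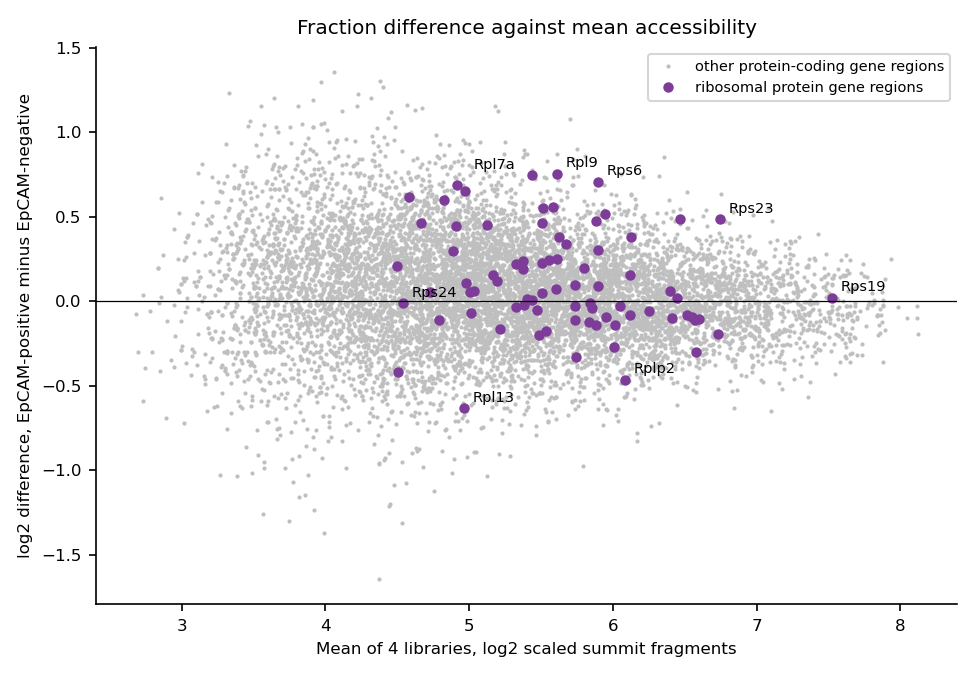
The log2 difference of scaled summit fragments, EpCAM-positive minus EpCAM-negative, against the mean log2 level of the 4 libraries, for the 78 ribosomal protein gene regions (purple) and the other protein-coding gene regions (grey). Member points lie within the grey cloud, from −0.63 at Rpl13 to 0.75 at Rpl9, and their median of 0.0558 turns to −0.063 under background scaling, which moves all regions alike.

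Among the largest positive differences were those at Rpl9, Rpl7a, Rps6, Rpl19 and Rpl26. None passed the test over all regions. Rps6, the small-subunit protein phosphorylated by S6 kinases downstream of mTOR, had 76.82 and 75.41 scaled fragments in the 2 EpCAM-positive libraries, against 46.19 and 47.07 in the 2 EpCAM-negative ones. The 2 libraries of each fraction were close to each other and the fractions were apart, with a fold of 1.63 and a log2 difference of 0.71 (SE 0.20, 95% interval 0.31 to 1.10, limma adjusted p = 0.0809).

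Rpl9, a large-subunit protein whose region also holds the start of the lipoic acid synthase gene Lias, had 71.33 and 56.78 against 36.29 and 39.22 scaled fragments. Its log2 difference was 0.75 (SE 0.21, limma adjusted p = 0.0859). Rpl7a, a large-subunit protein, had 49.38 and 63.87 against 38.49 and 29.14, a log2 difference of 0.75 (SE 0.23, limma adjusted p = 0.11). In both genes every EpCAM-positive value was above every EpCAM-negative value. Without EpCAM-negative replicate 1, Rpl7a passed the test with a log2 difference of 0.94 (limma adjusted p = 0.0476), while leaving out each other library gave 0.54 to 0.94 (limma adjusted p = 0.242 to 0.534).

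Rpl19 had 44.81 and 32.82 against 24.2 and 23.53 scaled fragments, and Rpl26, known to bind p53 mRNA, had 44.81 and 34.6 against 33 and 19.05. The fractions did not overlap at either gene, and the limma adjusted p-values were 0.213 and 0.265. At Rpl26 the log2 difference was 0.65, and it was 0.25 without EpCAM-negative replicate 2 and 1.04 without EpCAM-negative replicate 1. At Rps23, described above, the log2 difference was 0.48 (SE 0.17, limma adjusted p = 0.16).

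Among the largest negative differences were those at Rpl13, Rplp2, Rplp1, Rps29 and Rpl37. Rpl13, a large-subunit protein, had 28.35 and 22.18 scaled fragments in the 2 EpCAM-positive libraries, against 38.49 and 39.22 in the 2 EpCAM-negative ones. Both EpCAM-positive values were lower, with a log2 difference of −0.63 (SE 0.25, limma adjusted p = 0.249). Rplp2, a protein of the stalk that recruits translation factors, had 64.02 and 52.34 against 82.49 and 77.33, without overlap and with a log2 difference of −0.46 (SE 0.19, limma adjusted p = 0.262). Rplp1 and Rps29 also had both EpCAM-positive values below both others, with log2 differences of −0.33 and −0.30, while at Rpl37 the fractions overlapped. Their limma adjusted p-values lay between 0.464 and 0.599.

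The other 2 stalk genes had lower values in the EpCAM-positive libraries too, by small amounts at Rplp0. Rplp0, the stalk's base, had 52.13 and 50.57 scaled fragments in the 2 EpCAM-positive libraries, against 56.09 and 54.91 in the 2 EpCAM-negative ones. Rplp1 had 49.38 and 46.13 against 61.59 and 58.28. The fractions did not overlap at either gene, an order seen at 16.5% of the regions of protein-coding genes. The difference at Rplp0 was −0.11 (SE 0.20), and none of the 3 stalk genes passed the test.

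The region of Rpl22 also holds the start of 9430083M05Rik. Rpl22 had 46.64 and 43.47 scaled fragments in the 2 EpCAM-positive libraries, against 39.59 and 36.98 in the 2 EpCAM-negative ones. The fractions did not overlap, but the log2 difference of 0.23 (SE 0.22, 95% interval −0.22 to 0.69, limma adjusted p = 0.708) had an interval on both sides of 0. Its paralog Rpl22l1, which can take its place in the ribosome, had 104 and 83 summit fragments before scaling against 65 and 48, a scaled log2 difference of 0.43 (limma adjusted p = 0.319).

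Rpl5 and Rpl11, which form the 5S particle that binds the p53 regulator MDM2, both had fractions that overlapped. Rpl5 had 62.19 and 53.23 scaled fragments against 38.49 and 53.79, and Rpl11 had 56.7 and 76.29 against 71.49 and 62.76. The log2 differences were 0.34 (SE 0.22) and −0.03 (SE 0.20), with 95% intervals of −0.10 to 0.78 and −0.42 to 0.37 that overlap widely. Rpsa, also known as a laminin receptor, overlapped as well (60.36 and 46.13 against 51.69 and 56.04).

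Log2 differences at 4 further genes mutated in Diamond-Blackfan anaemia ran from 0.09 to 0.45. Of such genes described above, Rpl26 had 0.65, Rps19 0.02 and Rps24 −0.01, all outside that range. These are not all genes of that disease. Rpl5, Rpl11, Rpl27, Rps27 and Rps29, named above for other reasons, had 0.34, −0.03, −0.10, 0.52 and −0.30. The log2 difference was 0.45 (SE 0.24) at Rpl35a, 0.30 (SE 0.27) at Rps10, 0.23 (SE 0.22) at Rps7 and 0.09 (SE 0.20) at Rps26. Rpl35a alone of these 4 had fractions that did not overlap, in a region that also holds the start of Iqcg. Rps27a, the ubiquitin fusion, had 119.8 and 91.38 scaled fragments against 78.09 and 71.73 without overlap, a log2 difference of 0.48 (SE 0.18, limma adjusted p = 0.199). Rpl38, which is known for a part in Hox mRNA translation, had 50.3 and 39.03 against 40.69 and 36.98, with overlap. Rps14 had 85.96 and 86.05 against 85.79 and 79.57, a difference of 0.06 (SE 0.18) with both EpCAM-positive values above by a small margin, and Rps19bp1 one of 0.05 (SE 0.27).

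All 4 X-linked members, Rpl10, Rpl39, Rps4x and Rpl36a, had differences below 0, at −0.19, −0.06, −0.11 and −0.14, and the fractions overlapped at each. The median over regions of protein-coding genes on the X chromosome was 0.0466. No X-linked member passed the test. The value at Rpl10 was −0.37 without EpCAM-negative replicate 1 and −0.03 without EpCAM-negative replicate 2.

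Genes of the 2 subunits were also counted apart. Of 46 large-subunit regions 16 had both EpCAM-positive values above (34.8%) and 5 both below (10.9%), with a median log2 difference of 0.0999. Of 31 small-subunit regions 9 were above (29%) and 3 below (9.68%), with a median of 0.0205. The shares over all regions of protein-coding genes, given above, were 23.8% and 16.5%, and the difference between the subunits was not tested.

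Genes with related work were counted in the same way. Of 78 mitochondrial ribosomal protein genes 73 had a peak in all 4 libraries, of 34 translation factor genes all 34, and of 44 ribosome biogenesis genes 43. Both EpCAM-positive values were above at 32.4%, 27.3% and 30.2% of their regions and both below at 18.3%, 12.1% and 18.6%, with median log2 differences of 0.0632, 0.0934 and 0.0698. None of these regions passed the limma test. The median of the mean level was 41.4, 51.2 and 45.4 scaled fragments over these sets, in the same order, against 48.8 over the members. Fau and Rack1, which encode ribosomal proteins under other names, had a peak in every library, with differences of 0.18 and −0.31. Of the 7 paralogs found among protein-coding genes, 5 had a peak in every library (Rpl3l, Rpl7l1, Rpl22l1, Rpl36al and Rps27l), and Rpl10l and Rpl39l had none.

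**Figure D3:**
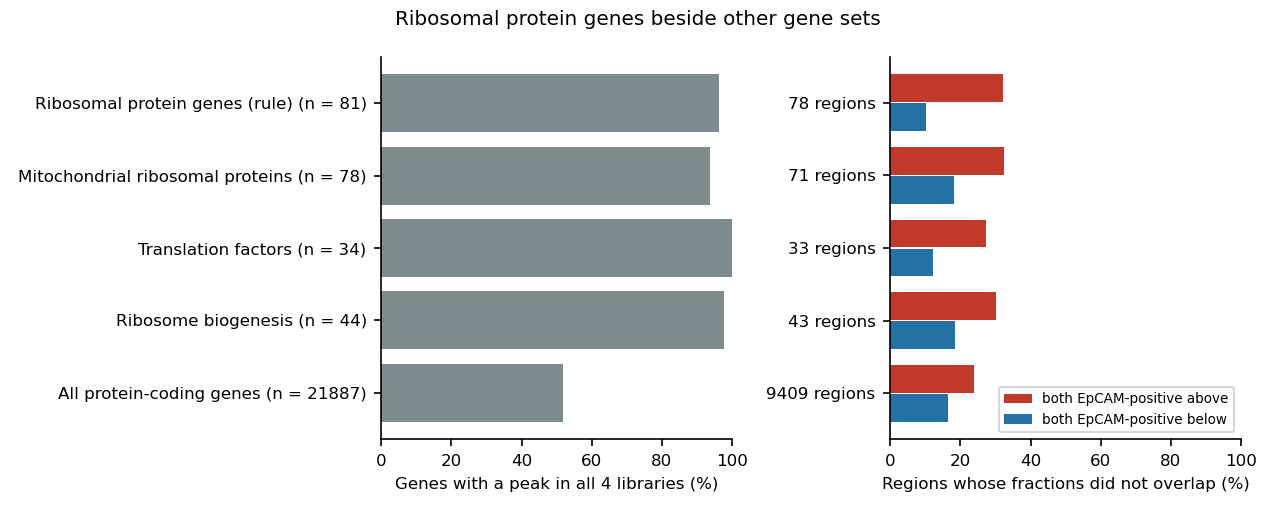
Left, the share of genes with a peak in all 4 libraries. Right, the share of regions where both EpCAM-positive values were above (red) or below (blue) both EpCAM-negative values. The ribosomal protein genes reach 96.3% on the left against 51.7% of all protein-coding genes, and 32.1% above with 10.3% below on the right, against 23.8% and 16.5% of all protein-coding gene regions; under background scaling these shares are 21.8% and 23.1% against 14.1% and 27.7%.

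The position of the summit was measured from the start, in regions chosen because they overlap the window from 250 bases before to 50 bases after a listed start, which sets much of the closeness. For the 58 members with a peak in every library and a listed start, the strongest summit lay at a median of 42 bp after the start, with quartiles of −127.8 and 103 bp and a range from −343 to 349 bp. It lay after the start at 36 of 58 and before it at 22. Within 150 bp on either side were 67.2% of the members, against 56.2% of the 7531 protein-coding genes measured alike, whose median was 36 bp. The farthest summits before the start were those of Rps19, Rpl9 and Rpl10 shown above, and the farthest after it was that of Rpl38.

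**Figure D4:**
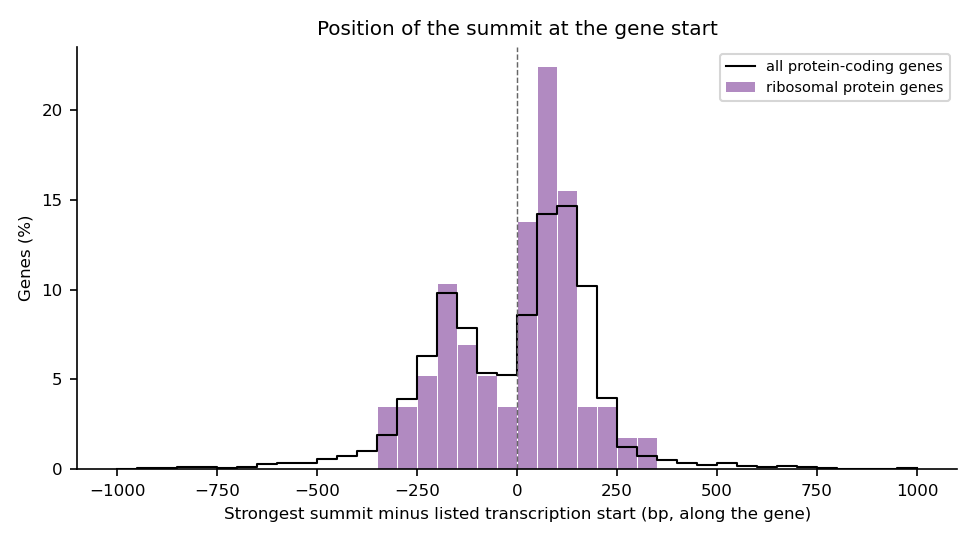
Distance from the listed transcription start to the strongest summit, along the gene, in bins of 50 bp, as a percent of 58 ribosomal protein genes (bars) and of 7531 protein-coding genes (line). Both fall into a cluster before the start and a larger one after it, with medians of 42 and 36 bp.

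The strings were counted over windows from 250 bases before to 50 bases after the start. TCTCGCGA, part of the palindromic box read by ZBTB33 and BANP, was found in 11 of 58 member windows (19%, exact Clopper-Pearson 95% interval 9.87% to 31.4%). It was found in 3.15% of accessible protein-coding windows and 0.995% of all 32851 windows listed. The 11 genes are Rpl7a, Rpl10a, Rpl12, Rpl26, Rpl27a, Rpl35, Rps3a1, Rps6, Rps15a, Rps19 and Rps28. Rps19, Rps6 and Rpl7a, whose sequences are shown above, carry it within 150 bases of the start.

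CCGGAAG was present in 39.7% of member windows, against 22.9% of accessible and 8.86% of all windows. A TOP tract was present in 29 of 58 members (50%), against 30.7% of accessible and 29.7% of all windows, so the rule for the tract is met often by other promoters. The rule takes the listed start as the true start, which was not tested, and a tract farther from it is not counted. GGGCGG was present in 60.3% of members, against 71% of accessible and 35.7% of all windows. TATAAA was found in 8.62% of members (Rpl36a, Rpl39, Rplp0, Rps2 and Rps28), 5.56% of accessible and 13.6% of all windows. The CREB string was found in 8.62%, 4.28% and 1.79% of the same sets, the YY1 string in 6.9%, 5.91% and 2.75%, the NRF1 string in 5.17%, 6.84% and 2.71%, and the E-box in 8.62%, 11.5% and 7.15%. The median GC content was 58.2% in members and 62% in accessible windows. These are matches of letters and not measured binding.

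**Figure D5:**
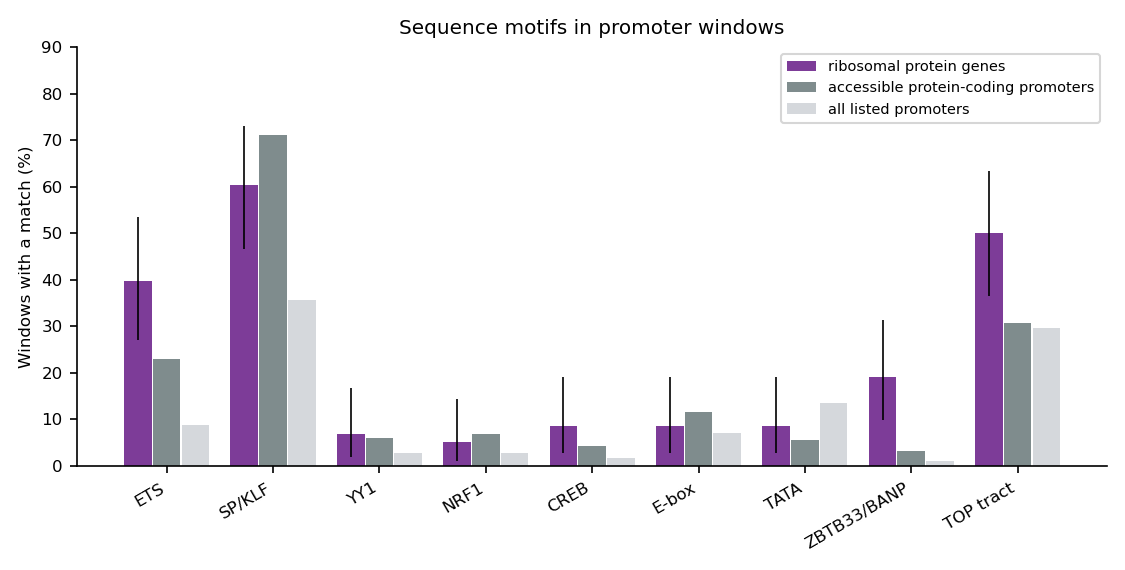
Percent of promoter windows with a match to each string, for 58 ribosomal protein genes (purple, with exact 95% intervals), 7531 accessible protein-coding genes (dark grey) and all 32851 listed windows (light grey). The ZBTB33/BANP string reaches 19% of the ribosomal protein genes and 3.15% of accessible windows, and the ETS string 39.7% and 22.9%.

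Within the family, members with a TOP tract had a median log2 difference between the fractions of 0.192, and those without had −0.0125. Over all accessible windows the same medians were 0.0493 and 0.0459. Members with GGGCGG had a median of 0.0165 and those without 0.228, against 0.0335 and 0.0634 over accessible windows. Members with TCTCGCGA had a median of 0.193 and a median level of 55.6 scaled fragments, and those without had 0.0621 and 46.4 fragments, while the median differences over accessible windows were 0.0506 and 0.046. Members with CCGGAAG had a median difference of 0.0521 and those without 0.0727, against 0.0529 and 0.0436 over accessible windows. The other strings were found in only 3 to 5 members each. Medians with and without were 0.338 and 0.0535 for NRF1, 0.321 and 0.0578 for YY1, and 0.244 and 0.0621 for CREB. For the E-box they were 0.155 and 0.0535, and for TATAAA −0.141 and 0.0936. All of these splits were made within 58 genes after the differences were known, and none was tested.

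Most markers of the labelled cell type were accessible. Of 12 DN3 markers, 10 had a peak in each EpCAM-positive library and 12 and 11 in the EpCAM-negative libraries. Rag1 had peaks in the EpCAM-negative pair only, at 7 and 4 summit fragments. In other patterns, 2 more DN3 markers lacked a peak in at least 1 library. The EpCAM-negative lists reach down to a lower −log10 q, so these marker counts do not share a threshold. Of 7 thymic epithelium markers 3 or 4 had a peak per library, with Foxn1, Aire and Cldn4 called in all 4 libraries, Krt8 in EpCAM-positive replicate 2 alone, and Krt5, Krt14 and Psmb11 in none. B cell markers had peaks at Pax5 and Ebf1 and none at Cd79a or Ms4a1, NK and innate markers only in EpCAM-positive replicate 2 (2 of 3), myeloid markers at 1 or 2 of 5, and erythroid markers at Klf1 and not at Gata1, Hba-a1 or Hbb-bs. A part of other cell types in the levels at ribosomal protein genes was not tested. Epcam itself had a peak in both EpCAM-positive libraries and in 1 of the EpCAM-negative libraries, replicate 2. These peaks did not all lie at 1 site. The region chosen for Epcam held a peak in EpCAM-positive replicate 2 only, at 8 summit fragments.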

How the data were processed

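ATAC-seq libraries of 2 EpCAM-positive and 2 EpCAM-negative DN3 samples were used as 1 deposited peak list each. Per the submitters' processing notes, the tools were MACS3, deepTools, bedtools, Picard, SAMtools, Bowtie2, Trimmomatic, Trim Galore and FastQC, with build mm10 (GRCm38). Versions, roles, settings and any shift of reads for the transposase are not stated in any source used here. Each deposited list holds, per peak, the authors' display score, a fold over local background, and the −log10 of p and of q. Lists held 24598 to 29030 peaks, and read depth is not known.

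Summit fragments and background were solved from the deposited fold (1 added to both terms) and Poisson −log10 p, within 0.01, which gave a whole number for all peaks used. For 1.93% to 4.14% of peaks more than 1 solution fitted and the nearest was kept. Peaks overlapping by 1 bp or more were merged into 36224 regions, and 16761 of these were called in every list. A member's region was that over its promoter window (250 bases before to 50 after a listed start), or the strongest in its span where no start was listed (20 members). Levels were scaled by median ratios over shared regions. limma 3.58.1 (trended, R 4.3.3) compared the fractions, and a difference is EpCAM-positive minus EpCAM-negative. The script was tested on simulated data. SciPy 1.17.1 gave intervals and permutation tests. The peak caller's duplicates and multi-mapping settings could change the levels.

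The members and lists were chosen with earlier results of these data known. Genes named are all members without a peak in every library, the 10 highest and 8 lowest, the 6 largest differences each way and genes known from biology. A few genes that this rule or the lists name are not reported here. Alternatives were thresholds, gene windows, scaling, a pseudocount, a replicate block and each library left out.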

Additional observations from a re-analysis of the deposited data

How the results depend on the processing

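The count of 78 members with a peak in every library became 75 within the gene span alone. At listed starts only it was 58, of the 61 genes that have an entry. It stayed at 78 under all other alternatives run. Leaving out each library gave 0 to 1 members open in the EpCAM-positive pair only. Background scaling gave a median member difference of −0.063 and 18 members with both EpCAM-positive values below (23.1%, against 27.7% of the regions of protein-coding genes), and scaling on regions at gene starts a median of 0.0107; the cause was not tested. Leaving out a library, which leaves 1 value on a side to be compared, gave 31 to 38 members above (39.7% to 48.7%) and 16 to 23 below (20.5% to 29.5%), against 36.7% to 42.2% and 29.9% to 33% of the regions of protein-coding genes, and 0 to 1 members called higher. The lone library of a fraction is then assumed to vary like the others. With the replicate number as a replicate block, limma called 6 members higher (Rpl7a, Rpl9, Rps6, Rps23, Rps27 and Rps27a), with 320 regions higher and 436 lower overall against 35 and 54 without it. Nothing in the labels says that the numbers pair samples, and the deviations of equally numbered libraries correlated at r = 0.158 over 78 members and 0.16 over all regions, which are not independent. All-region calls ranged from 5 to 79 higher and from 7 to 103 lower without 1 library, and were 18 and 177 under background scaling, 16 and 50 with gene-start scaling and 14 and 23 among regions with a mean of at least 20 fragments. Of the genes followed singly, Rps19 turned to −0.0983 under background scaling and −0.0246 with gene-start scaling. Leaving out 1 library, Rps19 ranged from −0.0235 (EpCAM-positive replicate 2 out) to 0.0691, and Rps24 from −0.392 to 0.371, above 0 also at 0.274 when the first EpCAM-negative library was out. In the 150 bases before the start alone, ETS was found in 24.1%, GGGCGG in 39.7%, and NRF1 and the E-box in 0% of members, a shorter window. The shares of accessible windows there were 14.6%, 59%, 4.79% and 7.18%, in the same order. TCTCGCGA was found there in 15.5% of members and 2.39% of accessible windows. Precision is limited by 2 libraries per fraction and by summit counts of 16 to 216 fragments.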
